A study of Mus musculus with 12 samples.

Results

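The genes described here make, conjugate and move bile acids in the liver, or sense them through the farnesoid X receptor FXR. The 10 genes were chosen by symbol, and all 10 were found among the 21705 genes of the RNA-seq table. They are Cyp7a1 and Cyp8b1 of the classic pathway of synthesis, Cyp27a1 and Cyp7b1 of the alternative pathway, Slc27a5 and Baat of conjugation, the transporters Slc10a1 and Abcb11, and the nuclear receptors Nr1h4 and Nr0b2. Livers came from 12 C57BL/6J female mice aged 10 to 12 weeks. Of these, 6 were injected in the tail vein with saline, and 6 with LNA29, a mix of 2 locked nucleic acid inhibitors, 1 against miR-29a and 1 against miR-29b/c, each dosed at 20 mg/kg. Tissue was taken 7 days later from mice fasted for 18 h, so that both groups show the fasted state. The sequenced comparison holds no mice given a control LNA, and an effect of loss of miR-29 and a general effect of an injected LNA cannot be told apart. Polyadenylated RNA of whole liver was sequenced. In such bulk samples fewer cells of a type and less RNA per cell cannot be told apart.

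Bile acids are made from cholesterol in hepatocytes, conjugated to taurine or glycine, pumped into bile and largely taken back up from portal blood. Their synthesis is a main route by which the body disposes of cholesterol. When bile acids accumulate they bind FXR, the product of Nr1h4, which induces the repressor SHP (Nr0b2) and the export pump BSEP (Abcb11). SHP, which lacks a DNA-binding domain, represses Cyp7a1 and Cyp8b1 by binding to activators such as LRH-1 and HNF4A, and a hormone from the ileum gives a further signal that lowers Cyp7a1.

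The inhibited miRNAs share the seed, bases 2 to 8 of the mature sequence, that pairs with target transcripts. They are printed from RefSeq (GRCm38.p6), 5′ to 3′, with the seed in capitals, to show the word that was looked for in the bile acid transcripts.
mmu-miR-29a-3p: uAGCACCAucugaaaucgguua
mmu-miR-29b-3p: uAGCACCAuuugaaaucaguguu
mmu-miR-29c-3p: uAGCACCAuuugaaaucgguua
The miR-29a strand lies at chr6:31062673-31062694 on the minus strand and the miR-29c strand at chr1:195037600-195037621 on the plus strand. The miR-29b strand is encoded at chr6:31063025-31063047 on the minus strand and again at chr1:195037091-195037113 on the plus strand. The DNA complement of the seed, TGGTGCT, was searched on the sense strand of the longest 3′ UTR annotated for a gene. It was found in 0 of the 10 bile acid genes, whose 3′ UTRs ran from 133 bases in Slc27a5 to 2603 bases in Cyp7a1, and in 1730 of the 11105 tested genes with such a UTR (15.6%). The absence of a match says only that these 7 letters are not in those annotated sequences.

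The start region of 3 genes carries words that bear on FXR and SHP. These regions are printed from RefSeq (GRCm38.p6), 5′ to 3′ in the direction of the gene. Each holds the 250 bases before the start site and the 50 bases that begin with it. Capitals mark the FXR inverted repeat (AGGNCA and TGACCT with 1 base between them) in Abcb11, the LRH-1 core TCAAGG in Nr0b2, and the HNF4A core CAAAGTCCA in Cyp8b1. Abcb11 lies at chr2:69342567-69342866 on the minus strand, Nr0b2 at chr4:133553126-133553425 on the plus strand, and Cyp8b1 at chr9:121916256-121916555 on the minus strand.
Abcb11: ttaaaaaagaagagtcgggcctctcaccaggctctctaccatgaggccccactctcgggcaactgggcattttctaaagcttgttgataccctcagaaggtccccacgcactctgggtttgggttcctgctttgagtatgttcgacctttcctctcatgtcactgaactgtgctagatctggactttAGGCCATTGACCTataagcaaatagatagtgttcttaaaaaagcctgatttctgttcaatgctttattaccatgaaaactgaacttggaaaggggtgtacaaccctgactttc
Nr0b2: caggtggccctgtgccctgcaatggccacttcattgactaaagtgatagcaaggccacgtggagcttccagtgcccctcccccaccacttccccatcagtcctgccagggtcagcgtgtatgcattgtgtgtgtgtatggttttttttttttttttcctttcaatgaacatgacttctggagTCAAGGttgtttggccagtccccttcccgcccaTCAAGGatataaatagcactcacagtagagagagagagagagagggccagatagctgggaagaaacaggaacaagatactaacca
Cyp8b1: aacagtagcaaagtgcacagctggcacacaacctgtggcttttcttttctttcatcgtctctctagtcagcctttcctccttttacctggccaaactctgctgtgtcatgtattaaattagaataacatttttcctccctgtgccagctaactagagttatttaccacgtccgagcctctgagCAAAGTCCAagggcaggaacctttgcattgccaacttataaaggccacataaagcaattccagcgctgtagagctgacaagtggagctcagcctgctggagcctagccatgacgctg
The inverted repeat of Abcb11 began at position -63 from the start site, and 12 of 32851 RefSeq promoter windows of the same length (0.0365%) held such a repeat on either strand. Nr0b2 held the LRH-1 core at positions -68 and -35, a word present in 14.4% of the windows. Cyp8b1 held the HNF4A core at position -67, a word present in 0.475% of the windows. A TATAAA word, which overlaps none of these, began at position -28 in Nr0b2 and -31 in Cyp8b1 and was present in 13.6% of the windows. The words were chosen with the sequences in view, and a match is a description of letters, not of binding. RefSeq windows of Cyp27a1, Nr1h4 and both entries of Slc10a1 were searched in the same way and held none of the first 3 words on either strand, and 1 of the Slc10a1 windows held TATAAA on the opposite strand. The Nr1h4 window, at chr10:89506609-89506908 on the minus strand, lay inside the annotated span of the gene (chr10:89454234-89533585). The region before the outermost annotated start of Nr1h4 was not searched. No window of Cyp7a1, Cyp7b1, Baat or Slc27a5 was used here.

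Values are given in the deposited unit, in which the authors brought the upper quartile of the genes read in a library to 1000. Depth ran from 7696076 to 19062442 reads per liver, and 1 read was worth between 9.80 and 24.4. LNA29 libraries were shallower, with a median of 9123462.5 reads against 12011985 in saline livers. The median worth of 1 read was 18.4 in LNA29 and 12.9 in saline livers. Albumin, a hepatocyte product, took 35.7% of the reads in saline replicate 49, the lowest share, and up to 46.9% in the other livers. Among the 10 genes, LNA29 replicate 48 had the lowest value of its group for 6 and the highest for 2, and saline replicate 49 had the lowest value of its group for 4 and the highest for 1. Both livers were kept, and values without them are given beside the results they moved most. The 6 hepatocyte markers (albumin, Ttr, Apoa1, Tat, Cps1 and Hnf4a) were read in every liver with at least 400 reads. Of the 3 listed ileum genes, Fgf15 and Fabp6 had no reads in any liver. Slc10a2, also on that list, had 1 to 13 reads in saline and 1 to 9 in LNA29 livers.

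In LNA29 livers the bile acid genes were read at levels whose difference from saline livers did not pass the threshold for any gene. The widest gap beside its error was that of the uptake transporter Slc10a1, at 64.4% of its saline mean. None of the 10 passed the test across all genes, limma with Benjamini-Hochberg adjustment, in which 0.16% of the 12486 tested genes had an adjusted p under 0.05. edgeR and DESeq2 on the recovered reads also gave 0, but the filter of edgeR left Cyp7b1 untested. Without adjustment, limma gave a p under 0.05 for 1 of the 10 against 7.91% of all tested genes, and the exact permutation test gave 1 of the 10 against 8.5%. For 0 of the 10 did the groups of 6 livers not overlap, against 0.985% of all tested genes. These counts are near the background and are no result about the genes as a group. The log2 fold change was below 0 for 9 genes, with a median of -0.24, while 61.4% of all tested genes lay below 0 with a median of -0.093. With each liver shifted to a common median the numbers were 7 genes and -0.19, beside -0.048 over all tested genes.

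**Figure D1:**
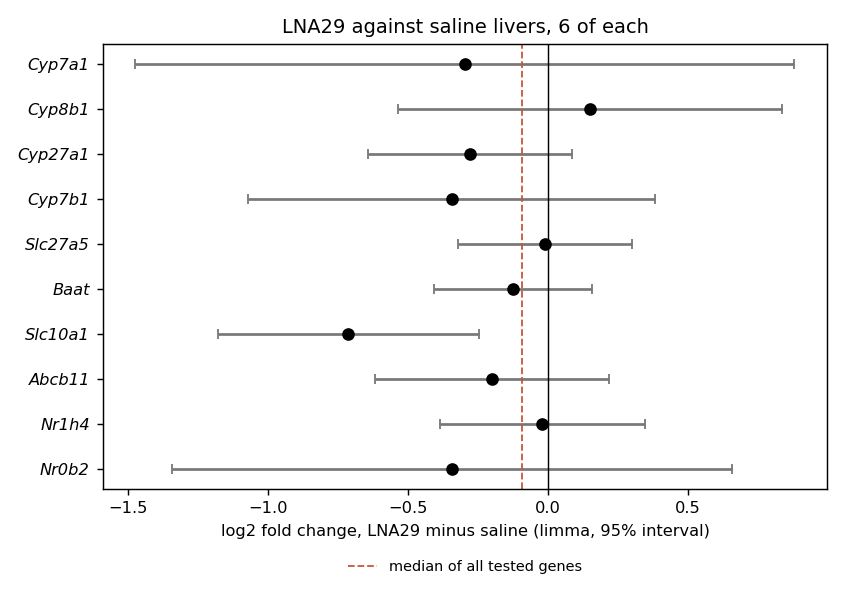
Log2 fold change of each bile acid gene in LNA29 against saline livers (points, limma on log2 of the value plus 1) with its 95% interval (bars), n = 6 livers per group. The interval of Slc10a1, from -1.18 to -0.24, is the only one of the 10 that leaves out 0; the dashed line marks the median of all tested genes at -0.093.

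The plot of fold changes shows how widely precision differed among these genes. The 95% interval of Slc27a5 ran from -0.32 to 0.30 on the log2 scale, whereas that of Cyp7a1 ran from -1.47 to 0.88. A change of Cyp7a1 to 0.36 or to 1.84 times its saline level therefore lies inside what these 12 livers allow, and for Slc27a5 the bounds were 0.801 and 1.23 times.

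Per kilobase of the longest annotated transcript, the level of Slc10a1 was highest in saline livers at 22020 ± 2851 (SD, n = 6), followed by Cyp8b1 at 19356 ± 8792 and Slc27a5 at 17231 ± 2801, whose ranges overlapped. Cyp27a1 at 7765 ± 1694 came next, with every saline liver below every saline liver of Slc27a5. Baat at 2206 ± 259, Nr0b2 at 1960 ± 900 and Nr1h4 at 1174 ± 191 followed, each overlapping its neighbour. Abcb11 at 772 ± 250 and Cyp7a1 at 519 ± 344 overlapped too, and Cyp7b1 was last at 69.0 ± 18.9, below Cyp7a1 in all saline livers. In LNA29 livers Slc10a1 took the third place, at 14180 ± 4738 per kilobase, behind Cyp8b1 at 20538 ± 7152 and Slc27a5 at 16964 ± 1320, and the order of the other genes was unchanged. The ranges of those 3 genes overlapped in LNA29 livers as well.

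**Figure D2:**
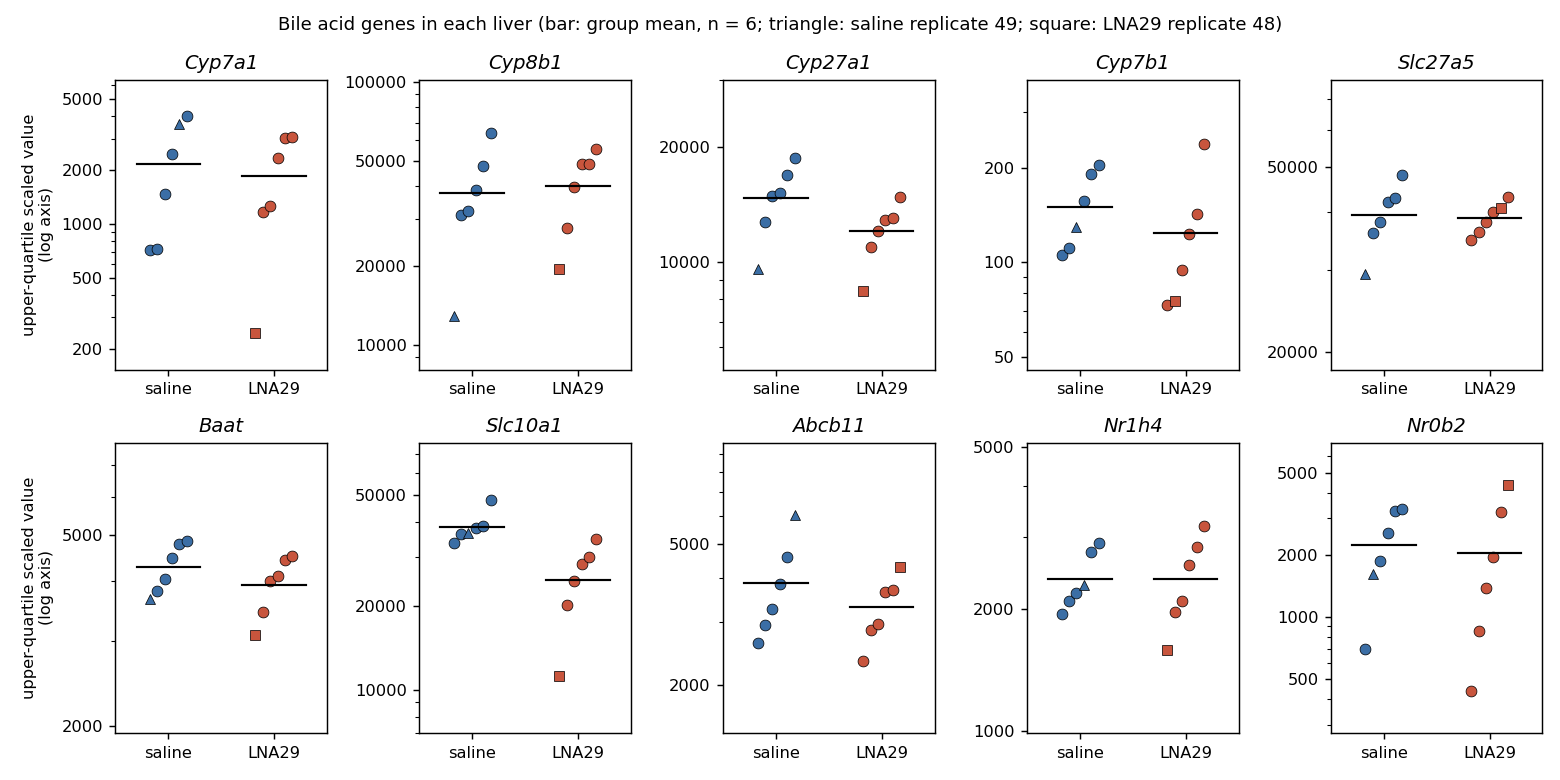
Value of each bile acid gene in each liver (upper-quartile scaled value, log axis), saline in blue and LNA29 in red; bars mark group means of 6 livers, triangles saline replicate 49 and squares LNA29 replicate 48. For Slc10a1, 5 of the 6 LNA29 livers lie below the lowest saline liver at 33578; for the other 9 genes at most 3 do.

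Slc10a1 (chr12:80953183-80968705, minus strand, GRCm38) encodes NTCP, the sodium-dependent carrier that takes conjugated bile acids from portal blood into the hepatocyte. The value ran from 33578 to 48051 in saline livers, with a median of 37279, and in LNA29 livers from 11189 to 34675 with a median of 26453. Among LNA29 livers, 5 of 6 lay below the lowest saline liver, and only LNA29 replicate 44, at 34675, overlapped the saline range. The mean was 38514 ± 4986 in saline and 24801 ± 8288 in LNA29 livers (SD, n = 6 each), 64.4% of the saline mean. On the log2 scale the difference was -0.71 (standard error, SE, 0.22, 95% interval -1.18 to -0.24), or 0.611 times (0.442 to 0.844). The two-sided exact permutation test over the 924 divisions of the 12 livers gave p = 0.00433, where 0.00216 is the smallest p it can give. The limma p was 0.00504 and the adjusted p over all tested genes 0.298, so that the difference did not pass the threshold.

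The size of the Slc10a1 difference depended on LNA29 replicate 48, its lowest liver. Without it the log2 fold change was -0.50 (exact permutation p = 0.00433), and without it and saline replicate 49 it was -0.51 (exact permutation p = 0.0159, limma adjusted p = 0.212). Leaving out each liver in turn gave values between -0.83 and -0.50, with limma adjusted p between 0.201 and 0.602. Slc10a1 had between 593 and 4757 reads in a liver, so that counting error was small beside the spread between mice. The spread of Slc10a1 within groups, 0.43 on the log2 scale, was larger than that of 66.1% of the 177 genes of like depth.

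The list of other uptake genes held 3 organic anion carriers, which share bile acid substrates with NTCP, and Ephx1. All 4 had a log2 fold change above 0, with a median of 0.14, and 0 passed limma, with or without adjustment, or the exact permutation test. Slco1b2 had 11061 ± 5322 in saline and 11714 ± 2501 in LNA29 livers (log2 fold change 0.17, SE 0.24, exact permutation p = 0.558). Ephx1, the microsomal epoxide hydrolase that has also been studied for a part in bile acid uptake, was at 16840 ± 5304 and 16977 ± 3295 (0.039, SE 0.19). Slco1a4 was at 1801 ± 464 and 2010 ± 661 (0.12, SE 0.25). Slco1a1, named after its values were seen, had the largest difference of the list, with 780 ± 215 and 1136 ± 398 (0.50, SE 0.24, exact permutation p = 0.108, limma adjusted p = 0.643) and 3 LNA29 livers above the highest saline liver.

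Abcb11 (chr2:69238282-69342616, minus strand) encodes BSEP, the canalicular pump that sets the flow of bile salts into bile, and its FXR repeat is printed above. Its value in saline livers ran from 2619 to 6020 with a median of 3561, and in LNA29 livers from 2339 to 4302 with a median of 3316. The groups overlapped over most of their range, with 1 LNA29 liver below the lowest saline liver. Means were 3882 ± 1257 and 3307 ± 710, which gave a log2 fold change of -0.20 (SE 0.20, exact permutation p = 0.396, limma adjusted p = 0.871). Saline replicate 49 was the highest liver, and without it the log2 fold change was -0.063 (exact permutation p = 0.747).

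The ratio of Abcb11 to Slc10a1 within a liver sets export beside uptake and does not depend on how the library was scaled. Its log2 was -3.36 ± 0.44 in saline and -2.85 ± 0.82 in LNA29 livers (SD, n = 6), a difference of 0.51. In LNA29 livers 5 of 6 lay above the saline median and 2 above the highest saline liver, and LNA29 replicate 48 had the highest ratio, -1.38. Without that liver the difference was 0.22. Highest among saline livers was replicate 49, at -2.60.

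Cyp7a1 (chr4:6265612-6275633, minus strand) encodes the rate-limiting enzyme of the classic pathway. Values in saline livers lay between 716 and 4000 with a median of 1959, and in LNA29 livers between 245 and 3073 with a median of 1799. The ranges overlapped, with LNA29 replicate 48 the lowest of all 12 livers and saline replicates 45 and 49, at 4000 and 3640, above every LNA29 liver. Means were 2165 ± 1436 and 1851 ± 1139, a log2 fold change of -0.30 (SE 0.56, exact permutation p = 0.716, limma adjusted p = 0.941). The sign turned on that 1 liver, since without LNA29 replicate 48 the log2 fold change was 0.21 (limma adjusted p = 0.951).

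Cyp7a1 varied 16.3-fold between the lowest and the highest liver, on 13 to 364 reads. Its SD within groups, 1.25 on the log2 scale, was larger than that of 99.8% of the 2115 genes of like depth. Nr0b2 came close, with an SD of 1.05, larger than that of 99.5% of 2004 such genes, and Cyp8b1 had 0.69, larger than that of 94.9% of 156. The other enzymes of the set stood elsewhere in their depth class, with Cyp27a1 above 45.5%, Cyp7b1 above 29.6%, Baat above 16.2% and Slc27a5 above 8.55% of genes.

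Cyp8b1 (chr9:121914356-121916305, minus strand) encodes the sterol hydroxylase that steers synthesis to cholic acid. In saline livers it ran from 12860 to 63698 with a median of 35398, and in LNA29 livers from 19453 to 55713 with a median of 44250. All LNA29 livers lay inside the saline range, and the lowest values of the 2 groups were saline replicate 49 and LNA29 replicate 48. Means were 37744 ± 17144 and 40049 ± 13946, a log2 fold change of 0.15 (SE 0.33, exact permutation p = 0.721, limma adjusted p = 0.951). Without saline replicate 49 it was -0.13 (limma adjusted p = 0.944). The log2 ratio of Cyp8b1 to Cyp7a1 within a liver was 4.29 ± 1.54 in saline and 4.74 ± 0.94 in LNA29 livers (SD, n = 6), and the ranges overlapped. The difference of 0.45 became -0.047 without saline replicate 49 and 0.13 without LNA29 replicate 48.

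Cyp27a1 (chr1:74713574-74737892, plus strand) encodes the mitochondrial sterol hydroxylase that opens the alternative pathway and also oxidises the side chain in the classic pathway. The 6 saline livers lay between 9590 and 18755 with a median of 15082, and LNA29 livers ran from 8396 to 14836 with a median of 12492. All 6 LNA29 livers lay below the saline median, but 5 of them lay inside the saline range. Means were 14692 ± 3205 and 12042 ± 2188, a log2 fold change of -0.28 (SE 0.17, 95% interval -0.64 to 0.087, exact permutation p = 0.158, limma adjusted p = 0.758). The lowest saline liver was replicate 49, and without it the exact permutation p was 0.0216 for a log2 fold change of -0.39. Without LNA29 replicate 48, the lowest LNA29 liver, the difference was instead -0.18 (exact permutation p = 0.312). Without both livers it was -0.29 (exact permutation p = 0.0476), and the limma adjusted p stayed at or above 0.443 in all 22 alternatives.

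Cyp7b1 (chr3:18071950-18243338, minus strand) encodes the oxysterol hydroxylase that follows Cyp27a1 in the alternative pathway. Saline livers ran from 105 to 203 with a median of 143, and LNA29 livers ran from 73.2 to 237.5 with a median of 109. LNA29 livers included both the lowest and the highest of the 12, with 3 below and 1 above the saline range. Means were 149 ± 41.0 and 124 ± 61.7, a log2 fold change of -0.34 (SE 0.34, exact permutation p = 0.281, limma adjusted p = 0.873). Cyp7b1 rested on 3 to 19 reads per liver, and the 95% interval of its fold ran from 0.476 to 1.30. The log2 ratio of Cyp7a1 to Cyp7b1, which sets the classic beside the alternative pathway, was 3.57 ± 0.98 in saline and 3.62 ± 1.23 in LNA29 livers (SD, n = 6). The difference of 0.048 became 0.43 without LNA29 replicate 48 and 0.29 without saline replicate 49.

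Slc27a5 (chr7:12988346-12998192, minus strand) encodes the bile acyl-CoA synthetase that activates bile acids before conjugation. It lay between 29410 and 48020 in saline livers with a median of 40060, and between 34875 and 43055 in LNA29 livers with a median of 38982. Every LNA29 liver lay inside the saline range. Means were 39425 ± 6408 and 38813 ± 3020, a log2 fold change of -0.0094 (SE 0.15, exact permutation p = 0.948), whose sign changed with the scaling: it was 0.036 with a common median.

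Baat (chr4:49489422-49506557, minus strand) encodes the transferase that joins bile acids to taurine or glycine. It ran from 3680 to 4857 in saline livers with a median of 4269, and in LNA29 livers from 3094 to 4512 with a median of 4054. The groups overlapped, with 2 LNA29 livers below the lowest saline liver. Means were 4281 ± 503 and 3936 ± 557, a log2 fold change of -0.13 (SE 0.13, exact permutation p = 0.286, limma adjusted p = 0.878). With Slc27a5, Baat had the narrowest spread of the 10 genes, and its highest liver was 1.57 times its lowest.

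Nr1h4 (chr10:89454234-89533585, minus strand) encodes FXR. Saline livers ran from 1947 to 2905 with a median of 2238, and LNA29 livers ran from 1585 to 3195 with a median of 2326. LNA29 livers included both the lowest and the highest of the 12. Means were 2364 ± 384 and 2372 ± 599, a log2 fold change of -0.020 (SE 0.17, 95% interval -0.39 to 0.35, exact permutation p = 0.916), and 0.026 with a common median.

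Nr0b2 (chr4:133553376-133556536, plus strand) encodes SHP, the repressor that FXR induces. Saline livers ran from 698 to 3333 with a median of 2209, and LNA29 livers ran from 439 to 4340 with a median of 1667. LNA29 livers again held both extremes, with replicate 46 lowest and replicate 48 highest. Means were 2219 ± 1019 and 2031 ± 1492, a log2 fold change of -0.34 (SE 0.47, exact permutation p = 0.582, limma adjusted p = 0.921). Nr0b2 varied 9.88-fold between livers on 18 to 331 reads, and without LNA29 replicate 46 its log2 fold change was 0.023 and without LNA29 replicate 48 it was -0.64. On the recovered reads of all livers, its log2 fold change was -0.054 with edgeR and -0.033 with DESeq2.

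Since SHP is the known repressor of Cyp7a1 and Cyp8b1, and Abcb11 like Nr0b2 is induced by FXR, the relation of Nr0b2 with these 3 genes was computed across livers on the log2 scale. Livers with high Nr0b2 had low Cyp7a1. Over all 12 livers Pearson's r was -0.769 (permutation p = 0.00346, adjusted over the 3 relations 0.0104) and Spearman's rho was -0.839 (permutation p = 0.000930, adjusted 0.00279). The highest Nr0b2 value, 4340 in LNA29 replicate 48, stood beside the lowest Cyp7a1 value, 245. Neither group alone passed the threshold after adjustment, with r = -0.795 in the 6 saline livers (exact permutation p = 0.0486, adjusted 0.146) and r = -0.824 in the 6 LNA29 livers (exact permutation p = 0.0319, adjusted 0.0667). Without saline replicate 45 and LNA29 replicate 46, the livers farthest from the median of Nr0b2, r was -0.770 (permutation p = 0.00897, adjusted 0.0269). Leaving out each liver in turn gave r between -0.803 and -0.731, and without LNA29 replicate 48 it was -0.744. The value with a common median was -0.814. Nr0b2 was set against these 3 genes only, so no share over all tested genes stands beside this r. The cause of the relation was not tested.

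**Figure D3:**
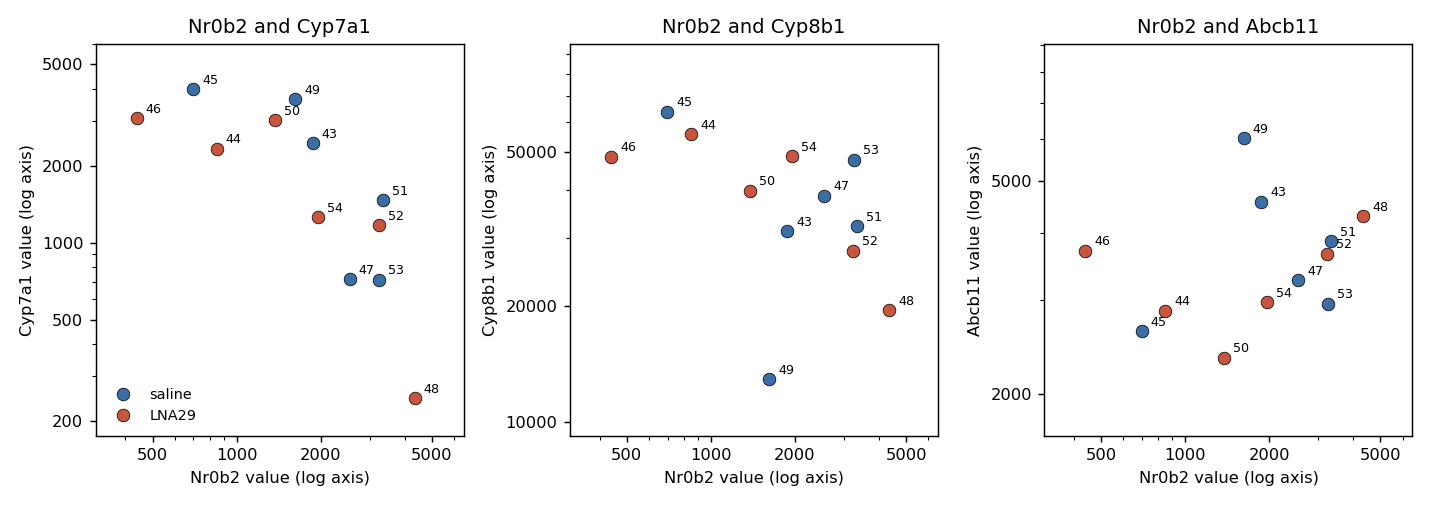
Value of Cyp7a1, Cyp8b1 and Abcb11 (vertical, log axis) against Nr0b2 (horizontal, log axis) in each of the 12 livers, saline in blue and LNA29 in red, labelled by replicate. Livers high in Nr0b2 are low in Cyp7a1 in both groups (r = -0.769 over 12 livers). Saline replicate 49 has the lowest Cyp8b1 value of the 12 livers.

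For Cyp8b1 the relation was not past the threshold over all livers, with r = -0.493 (permutation p = 0.103, adjusted 0.154) and rho = -0.559 (permutation p = 0.0632, adjusted 0.0948). It was -0.819 in the LNA29 livers (exact permutation p = 0.0444, adjusted 0.0667) and -0.177 in the saline livers (exact permutation p = 0.728, adjusted 0.778). The value depended on saline replicate 49, the liver with the lowest Cyp8b1, and without it r over the other 11 livers was -0.723 (permutation, adjusted p = 0.0184). Without the livers farthest from the median of Nr0b2, r was -0.300 (permutation p = 0.397). Abcb11 was not shown to be related to Nr0b2, with r = 0.259 over all livers (permutation p = 0.416) and rho = 0.343 (permutation p = 0.276), r = 0.145 in saline and 0.326 in LNA29 livers, and 0.254 without the livers farthest from the median of Nr0b2.

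Beyond these 10 genes, 44 further genes of bile acid synthesis, transport and regulation were listed, and 41 had enough signal to be tested. None passed limma with adjustment, nor edgeR or DESeq2, and 4 had an unadjusted limma p under 0.05, beside 7.91% of all tested genes. By the exact permutation test 6 of 41 had a p under 0.05, all 6 lower in LNA29 livers, beside 8.5% of all tested genes in either direction. The log2 fold change was below 0 for 29 and above 0 for 12, with a median of -0.14, beside 61.4% below 0 and a median of -0.093 over all tested genes.

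**Figure D4:**
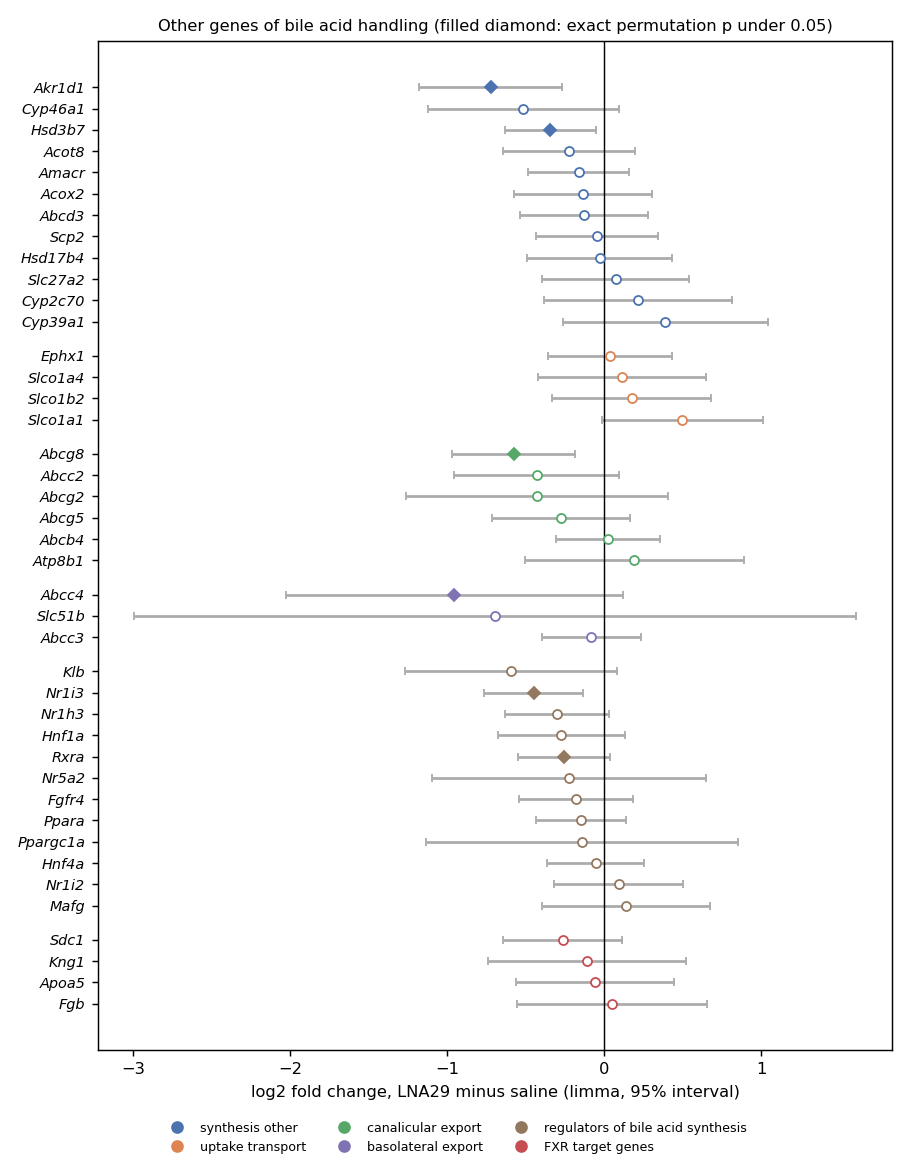
Log2 fold change in LNA29 against saline livers (limma, n = 6 per group) with 95% intervals for the 41 tested genes of the 6 pathway lists, coloured by list. Filled diamonds mark the 6 genes with an exact permutation p under 0.05, all of them below 0.

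In the list of other synthesis enzymes, 9 of 12 tested genes lay below 0, with a median of -0.13. Akr1d1, the steroid reductase that saturates the ring of bile acid intermediates, was at 2754 ± 1084 in saline and 1591 ± 290 in LNA29 livers (log2 fold change -0.72, SE 0.22, exact permutation p = 0.0130, limma adjusted p = 0.265). Hsd3b7, the dehydrogenase that acts next after Cyp7a1, was at 10335 ± 1520 and 8174 ± 1332 (-0.34, SE 0.14, exact permutation p = 0.0195, limma adjusted p = 0.513). The ranges of both genes overlapped between the groups. The most highly read genes of the list, the peroxisomal thiolase and carrier gene Scp2 (-0.045, SE 0.19), the acyl-CoA synthetase gene Slc27a2 (0.074, SE 0.22) and the peroxisomal multifunctional enzyme gene Hsd17b4 (-0.029, SE 0.22), had log2 fold changes within their errors of 0. Ch25h had no reads in any liver.

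Among the 6 genes of canalicular export the median was -0.35, with 4 below 0. Abcg8, which with Abcg5 pumps cholesterol into bile, was at 3090 ± 781 in saline and 2026 ± 292 in LNA29 livers (log2 fold change -0.58, SE 0.19, exact permutation p = 0.0195, limma adjusted p = 0.324). Abcb4, the phospholipid flippase of bile, was at 12012 ± 1741 and 12331 ± 2550 (0.023, SE 0.16). Abcc2, the conjugate export pump, was at 2525 ± 980 and 1845 ± 613 (-0.43, SE 0.25, exact permutation p = 0.175).

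Basolateral export, the route back into blood, was read mostly through Abcc3, with 13526 ± 1823 in saline and 12900 ± 2680 in LNA29 livers (log2 fold change -0.081, SE 0.15). Abcc4 rested on 1 to 11 reads per liver, with 64.2 ± 38.0 and 29.4 ± 9.89 (exact permutation p = 0.0498, limma adjusted p = 0.700), and had at most 3 reads in each LNA29 liver, too few for a fold change. Slc51b, a subunit of the organic solute transporter, had at most 8 reads in a liver, and its partner Slc51a had none in any of the 12.

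Of the 12 tested regulators, 10 lay below 0 with a median of -0.20. Nr1i3, the xenobiotic receptor CAR, was at 7239 ± 931 in saline and 5362 ± 1204 in LNA29 livers (log2 fold change -0.45, SE 0.15, exact permutation p = 0.0152, limma adjusted p = 0.347). Rxra, the partner with which FXR binds DNA, was at 18669 ± 3150 and 15466 ± 1114 (-0.26, SE 0.14, exact permutation p = 0.0498, limma adjusted p = 0.707). Hnf4a was at 26449 ± 4474 and 25267 ± 2715 (-0.054, SE 0.15). Vdr had at most 1 read in a liver and was not tested.

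The 9 listed FXR target genes share 5 members with the lists above, and 8 were tested, with a median of -0.083, 5 below 0 and 3 above. None passed the exact permutation test. Fgb, the fibrinogen beta chain, had a log2 fold change of 0.050 (SE 0.29), Kng1, the kininogen gene, -0.11 (SE 0.30), and Apoa5, an apolipoprotein gene, -0.059 (SE 0.24).

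Marker genes of other liver cells and zones were read beside these results. Summed over 6 Kupffer cell markers, the level ran from 7469 to 10814 in saline and from 6250 to 15041 in LNA29 livers. Of these markers 5 lay below 0, and Marco was at 514 ± 241 in saline and 1257 ± 1081 in LNA29 livers (log2 fold change 1.08, exact permutation p = 0.0368, limma adjusted p = 0.391). The 6 endothelial markers summed to between 4492 and 5120 in saline and between 3849 and 5110 in LNA29 livers, and the 6 stellate cell markers to between 3609 and 4370 and between 3019 and 4712. The 6 bile duct markers summed to at most 892 in any liver, and 5 of them were tested. No endothelial, stellate or bile duct marker had an exact permutation p under 0.05. Of the 6 hepatocyte markers named above, 4 had a log2 fold change above 0 and 2 below. Their median was 0.20, and 0 had an exact permutation p under 0.05. Among 7 genes read mainly near the central vein the median log2 fold change was -0.34 with 5 below 0, and among 6 read mainly near the portal vein it was 0.11 with 5 above 0, and again none passed the exact permutation test. Apart from the ileum genes Fgf15 and Fabp6, no marker was without reads in all livers. The part of any of these in the Slc10a1 difference was not tested.

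Bile acid synthesis in liver follows a daily rhythm, and 9 clock genes were read beside it. Of these, 1 passed limma with adjustment, against 0.16% of all tested genes, and 4 had an exact permutation p under 0.05, against 8.5%. The gene that passed was Dbp, with 190 ± 112 in saline and 29.1 ± 9.95 in LNA29 livers (limma adjusted p = 0.0468). Its groups did not overlap, but LNA29 livers had at most 2 reads each and saline livers 3 to 23, too few for a firm fold change. Nr1d1, which encodes the repressor REV-ERB alpha, was at 5348 ± 1693 and 2285 ± 1326 (-1.33, SE 0.32, exact permutation p = 0.0108, limma adjusted p = 0.139). Npas2 (1.27, SE 0.38, exact permutation p = 0.0173, limma adjusted p = 0.265) and Tef (-0.42, SE 0.18, exact permutation p = 0.0411, limma adjusted p = 0.552) were the other clock genes with an exact permutation p under 0.05. The part of the clock genes in the values of Cyp7a1, Nr0b2 or Slc10a1 was not tested.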

How the data were processed

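Liver RNA of 6 saline and 6 LNA29 mice was sequenced. Per the labels and the methods of the study, single-end reads were aligned by the authors using MapSplice2, and gene abundance was estimated with RSEM and scaled by the upper quartile. The values are therefore a scaled signal, deposited by the authors as 1 table of 21705 genes with 1 column for each liver, in which a gene without reads is listed at 1. Versions and gene annotation are not given in the sources used here, and the submitters' processing notes name mm9. Columns of the authors' group means, fold change and p-value, and 3 columns that hold values without a name, were left out. Positions and 3′ UTRs (GENCODE, GRCm38; longest annotated, stop codon included) and promoters and miRNAs (RefSeq, GRCm38.p6) came from another build than mm9 and were joined by symbol; promoters were found for 6 of the 10 genes.

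The genes and lists were chosen with earlier results of these data known. Values were tested on log2(value + 1) with limma 3.58.1 (R 4.3.3) with a trend, for 12486 genes whose mean reached 10. The p-values were adjusted by Benjamini-Hochberg, and 0.05 was the threshold. For low genes, fold changes on this scale depend on the pseudocount and the method. The median of basolateral export was -0.69, but -0.84 with a pseudocount of 0.1, -0.30 with 10 and 0.0022 with DESeq2. Single genes were also tested by a two-sided exact permutation test, and 3 correlations by permutation (100000 resamples, exact within groups). All 10 genes were described. A listed gene was named where its limma adjusted p or exact permutation p was under 0.05 or its groups did not overlap, and otherwise as 1 of at most 3 genes a list with the highest mean; Ch25h, Slc51a, Vdr, Fgf15 and Fabp6, which were not tested, the hepatocyte markers named together, Abcg5 and Slco1a1 are named outside the rule. The p-values of the group comparisons set a difference against the spread between these livers.

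Between 92.2% and 93.8% of the values other than 1 in a liver were whole multiples (within 0.02) of what 1 read is worth, so that reads were recovered, rounded and given to edgeR 4.0.16 and DESeq2 1.42.0 as alternatives. Other alternatives were pseudocounts of 0.1 and 10, no filter or a mean of at least 100, a common median, robust empirical Bayes, array weights and leaving out each liver. Chosen after the data were seen were leaving out saline replicate 49 with LNA29 replicate 48, and leaving out livers in the correlations. Scripts were tested on simulated data and run in Python 3.11.15 with scipy 1.17.1.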

Additional observations from a re-analysis of the deposited data

Results flagged for a closer look

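Values of the 10 bile acid genes and the other named pathway genes were examined in each group of 6 for a liver that stood apart by Dixon's ratio, which flags about 1 in 20 groups by chance. In 3 of 48 groups a liver did so, all in genes with an exact permutation p under 0.05, and none of them in the 10 bile acid genes. Hsd3b7 in saline replicate 43 was 13.71 on the log2 scale, above the other saline livers at 13.18 to 13.32. Abcg8 in saline replicate 45 was 10.74, below the other saline livers at 11.49 to 11.88. Nr1i3 in LNA29 replicate 54 was 12.91, above the other LNA29 livers at 12.03 to 12.35.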

How the results depend on the processing

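For none of the 10 genes was an adjusted p under 0.05 reached in any of the 22 alternatives. For Cyp7b1 there were 21, since the filter of edgeR left it out. The log2 fold change kept its sign in all alternatives for Slc10a1, Abcb11, Baat, Cyp27a1 and Cyp7b1. For Cyp7a1 it turned to 0.14 with array weights and to 0.42 without saline replicate 49 and LNA29 replicate 48, and ran from -0.55 to 0.21 when a liver was left out. When a liver was left out, Cyp8b1 ran from -0.13 to 0.34, Nr0b2 from -0.64 to 0.023 (-0.69 without saline replicate 49 and LNA29 replicate 48), Slc27a5 from -0.091 to 0.051 and Nr1h4 from -0.11 to 0.089. Slc27a5 turned to 0.036 with a common median, 0.043 with edgeR and 0.051 with DESeq2. Nr1h4 turned to 0.026 with a common median, 0.038 with array weights, 0.065 with edgeR, 0.076 with DESeq2 and 0.083 without saline replicate 49 and LNA29 replicate 48. The cause was not tested. The count of genes with an adjusted p under 0.05 was 20, with 10 under a common median, 58 with array weights, 71 with DESeq2, 44 without saline replicate 49 and LNA29 replicate 48, and between 1 and 29 when a liver was left out. The correlation of Nr0b2 with Cyp7a1 was -0.79 in saline and -0.82 in LNA29 livers alone, where fewer livers entered; that with Cyp8b1 ran from -0.72 to -0.39 when a liver was left out and passed the threshold only without saline replicate 49. Among the pathway lists, the median of basolateral export, which rests on few reads, lay between -0.89 and 0.0022. With 1 read worth up to 24.4, genes such as Cyp7b1 and Abcc4 were measured coarsely. No paired analysis was possible because the groups share no replicate number.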
